A study of Mus musculus with 16 samples.

Results

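The genes followed here are the cyclin-dependent kinase (CDK) inhibitors Cdkn1a, Cdkn1b, Cdkn1c, Cdkn2a, Cdkn2b, Cdkn2c and Cdkn2d and the D-type cyclins Ccnd1, Ccnd2 and Ccnd3. Their members are all array probes whose annotated symbol was exactly one of these names, which gave 24 probes of 10 genes among 38467 probes and 19640 named genes. The 7 inhibitor genes had 14 of these probes and the 3 cyclin genes had 10. No filter on low values was applied, so all 24 probes were tested.

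The cells were 3T3-L1, an established mouse preadipocyte line derived as a clone from embryonic fibroblasts. They were exposed to dexamethasone (dex), a synthetic glucocorticoid, or to its vehicle DMSO, and the groups are dex 2 h, DMSO 2 h, dex 36 h and DMSO 36 h. Each group had 4 arrays of separate biological replicates, 16 in all, and the sources used here do not say whether cultures, passages or days separated the replicates. No genetic change, and no agent other than dex or DMSO, is named for any group, and the single cell line limits what the groups stand for. Each array compared Cy5-labelled cDNA of 1 sample with a Cy3-labelled pool of the samples, so each value is a log2 ratio of sample over pool for 1 probe. A ratio of this kind shows how a transcript differed between groups, not its abundance, and it cannot show whether a gene was expressed at all or rank one gene's level against another's. In RNA of whole cultures, fewer cells of a kind and less RNA per cell cannot be told apart.

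CDK inhibitors and D-type cyclins set whether a cell leaves G1 and replicates its DNA. D-type cyclins bind Cdk4 and Cdk6, and these kinases start the phosphorylation of the retinoblastoma protein, which releases E2F factors to switch on S-phase genes. The INK4 inhibitors encoded by Cdkn2a (p16), Cdkn2b (p15), Cdkn2c (p18) and Cdkn2d (p19) bind Cdk4 and Cdk6 and keep D-type cyclins away, while the CIP/KIP inhibitors encoded by Cdkn1a (p21), Cdkn1b (p27) and Cdkn1c (p57) bind cyclin and CDK together and act most strongly on Cdk2. In 3T3-L1 cultures dex is a component of the usual adipogenic cocktail, and the cells pass through growth arrest, renewed division and final arrest on the way to fat cells.

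The medians of the 16 arrays lay between -0.0106 and 0.00832. Arrays of the 2 h groups were noisier, with residual SDs of 0.168 to 0.435 against 0.108 to 0.205 for the 36 h groups. DMSO 2 h replicate 4 stood apart from its group, with a mean correlation of -0.104 with the other 3 arrays. The tests below share 1 variance per probe across all 16 arrays. Calls at 2 h that end when the 2 h arrays are fitted by themselves are named as such where that refit was read. It was read for the member probes and for the 1 standing probe of pathway genes. It was not read for cell type markers or for the other probes of pathway genes, so their calls at 2 h were not checked in this way. Of 8 glucocorticoid response genes, 8 rose at 2 h and 7 rose at 36 h, where 1.97% and 6.88% of all genes rose. Per1 gave 0.48 ± 0.16 (adjusted p = 0.0856) at the later time. This list was chosen with earlier results of these data known, so it describes the response and is not an independent check of the treatment.

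At 2 h dex raised 1 of the 10 genes, Cdkn1a, and lowered 3, Cdkn2b, Cdkn2c and Ccnd2, by the criterion of at least 1 probe with an adjusted p under 0.05 in limma. Across the array 3.18% of genes passed in this comparison, 1.97% higher and 1.21% lower, and of probes 6 of these 24 and 2.22% of all passed. For the 24 member probes the median log2 difference was -0.0944, against -0.00969 for all probes. In 10 of the 24 probes the dex and DMSO arrays did not overlap, with 2 probes higher and 8 lower in dex, where 5.86% of all probes did not overlap, 3.07% higher and 2.79% lower.

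At 36 h dex raised 5 of the 10 genes, Cdkn1a, Cdkn2a, Cdkn2d, Ccnd1 and Ccnd3, and lowered 1, Ccnd2. The share of genes passing across the array was 11.7%, with 6.88% higher and 4.96% lower, and of probes 10 of these 24 and 8.83% of all passed. The median log2 difference over member probes was 0.318, against -0.00435 for all probes. Dex and DMSO arrays did not overlap in 13 of the 24 probes, 12 higher and 1 lower, and in 26.8% of all probes, 13.0% higher and 13.8% lower. The rises at 36 h were of 3 inhibitor genes and 2 cyclin genes. With the probes of a gene averaged 4 of the 10 passed, without Cdkn2a and Cdkn2d, and 1800 genes passed across the array.

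**Figure D1:**
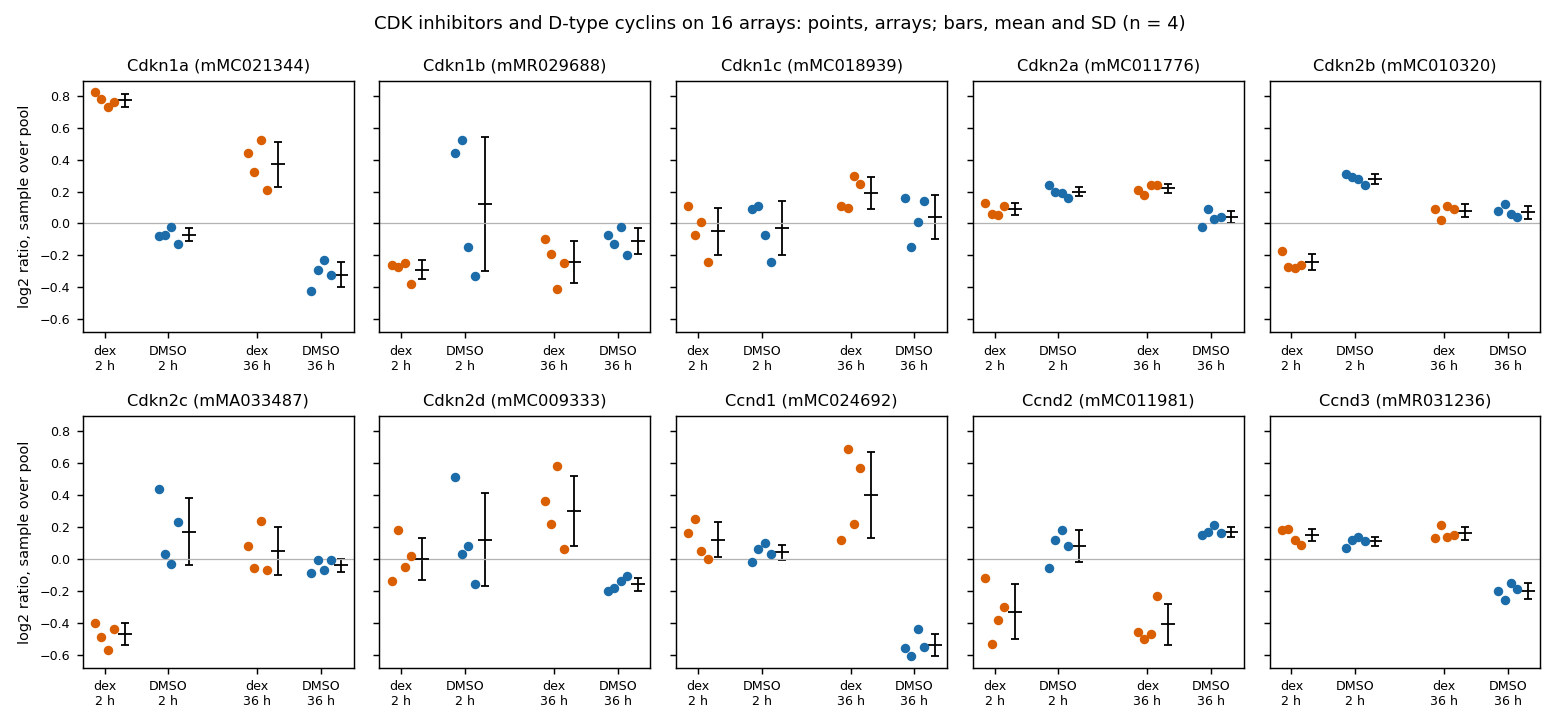
Log2 ratio of sample over pool on the vertical axis for 1 probe of each of the 10 genes, with 1 point per array in dex and DMSO at 2 h and 36 h; bars are the mean and SD (n = 4). Cdkn1a is separated from DMSO at both times, Cdkn2b and Cdkn2c are lowest in dex 2 h, and Ccnd1 and Ccnd3 are lowest in DMSO 36 h.

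Among the CIP/KIP inhibitors, Cdkn1a moved with dex at both times. Cdkn1a encodes p21, which stops the cell cycle downstream of p53 and of several p53-independent signals. On probe mMC021344 the log2 ratios were 0.82, 0.78, 0.73 and 0.76 in dex 2 h, against -0.08, -0.07, -0.02 and -0.13 in DMSO 2 h. At 36 h they were 0.44, 0.32, 0.52 and 0.21 in dex, against -0.42, -0.29, -0.23 and -0.32 in DMSO. All 8 dex arrays lay above all 8 DMSO arrays. The difference was 0.85 ± 0.08 at 2 h (1.80-fold, SE, n = 4 per group, limma adjusted p = 7.7e-06) and 0.69 ± 0.08 at 36 h (1.61-fold, adjusted p = 2.79e-05).

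The second Cdkn1a probe, mMR028209, followed the first across the 16 arrays with r = 0.97. Its log2 ratios were 0.96, 0.74, 0.71 and 0.91 in dex 2 h, against -0.03, 0.19, 0.10 and 0.00 in DMSO 2 h. At 36 h it read 0.34, 0.48, 0.41 and 0.31 in dex, against -0.12, -0.13, -0.04 and -0.15 in DMSO. The groups did not overlap at either time, and the differences were 0.77 ± 0.08 (adjusted p = 2.75e-05) and 0.50 ± 0.08 (adjusted p = 8.65e-04). The effect was not shown to differ between times, at -0.16 ± 0.11 (adjusted p = 0.568) on mMC021344 and -0.27 ± 0.11 (adjusted p = 0.295) on mMR028209 for 36 h minus 2 h. The later level was the lower one in dex, as given below, and in DMSO the difference of -0.24 ± 0.08 on mMC021344 did not pass (adjusted p = 0.195). The order of group means on mMC021344 was dex 2 h (0.77 ± 0.04, SD, n = 4), dex 36 h (0.37 ± 0.14), DMSO 2 h (-0.07 ± 0.04) and DMSO 36 h (-0.32 ± 0.08), with no overlap between neighbours.

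RefSeq promoter windows of build GRCm38.p6, which run from 250 bases before to 50 after each start, were available for 7 of the 10 genes, with 11 windows in all. One Cdkn1a window is shown because this gene held the strongest change at 2 h. The window also contains the long-known p53 element, given in capitals with at most 1 mismatch to the consensus. It begins 51 bases before the start and was found in 0.0883% of 32851 windows. The window of the other Cdkn1a start did not hold it. This element was added to the search after the sequences were seen. The sequence shown lies at chr17:29090859-29090978 on the plus strand, the 120 bases upstream of one Cdkn1a start.
Cdkn1a: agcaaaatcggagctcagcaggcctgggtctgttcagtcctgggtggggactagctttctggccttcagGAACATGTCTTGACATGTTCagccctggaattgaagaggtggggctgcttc
A full glucocorticoid response element (AGAACA, any 3 bases, then TGTTCT, either strand) was in none of the 11 windows and in 0.00913% of all windows. No E2F site (TTTCGCGC or TTTGGCGC, 0.813% of all windows) and no AP-1 site (TGANTCA, 7.81%) was in them either. These matches and non-matches describe letters in short windows and say nothing of binding.

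Cdkn1b and Cdkn1c did not pass in any comparison. Cdkn1b encodes p27, an inhibitor that accumulates in quiescent cells and is largely controlled by degradation of the protein. Its probe mMC026334 read 0.00, -0.02, -0.08 and -0.04 in dex 2 h, against 0.19, 0.10, 0.07 and 0.07 in DMSO 2 h. The groups did not overlap, but the difference of -0.14 ± 0.10 did not pass (adjusted p = 0.661). Probe mMR029688 read -0.26, -0.27, -0.25 and -0.38 in dex 2 h, against 0.44, 0.52, -0.15 and -0.33 in DMSO 2 h, where the vehicle arrays split into a high and a low pair. Its difference was -0.41 ± 0.15 (adjusted p = 0.291), and without DMSO 2 h replicate 4, the array that stood apart, it was -0.56 (adjusted p = 0.0302).

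At 36 h the Cdkn1b probes differed in sign, at 0.18 ± 0.10 (adjusted p = 0.315) and -0.13 ± 0.15 (adjusted p = 0.752), and they correlated at r = 0.31 over 16 arrays. Cdkn1c encodes p57, an imprinted inhibitor best known in development, and had 1 probe. It ranged from -0.24 to 0.11 in both dex 2 h and DMSO 2 h, and from 0.10 to 0.30 in dex 36 h against -0.15 to 0.16 in DMSO 36 h. The groups overlapped at both times, with differences of -0.02 ± 0.10 (adjusted p = 0.967) and 0.15 ± 0.10 (adjusted p = 0.487). In the order of the 4 group means, neighbours overlapped for Cdkn1c and for Cdkn1b probe mMR029688, while on Cdkn1b probe mMC026334 DMSO 2 h (0.11 ± 0.06, SD, n = 4) and dex 2 h (-0.03 ± 0.04) did not.

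Among the INK4 inhibitors, Cdkn2b and Cdkn2c fell at 2 h and did not pass at 36 h. Cdkn2b encodes p15, known as a gene that TGF-beta induces through Smad factors to stop growth, and lies beside Cdkn2a in the mouse genome. Its probe mMC010320 read -0.17, -0.27, -0.28 and -0.26 in dex 2 h, against 0.31, 0.29, 0.28 and 0.24 in DMSO 2 h. At 36 h it read 0.09, 0.02, 0.11 and 0.09 in dex, against 0.08, 0.12, 0.06 and 0.04 in DMSO. The 2 h groups were fully apart and the 36 h groups overlapped.

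The Cdkn2b difference was -0.52 ± 0.06 at 2 h (1.44-fold lower, adjusted p = 8.44e-05, and no higher than 0.0194 under any alternative tried) and 0.01 ± 0.06 at 36 h (adjusted p = 0.995). The change of the effect between times, 36 h minus 2 h, was 0.53 ± 0.09 (adjusted p = 0.00292). DMSO 2 h was the highest group (0.28 ± 0.03, SD, n = 4), dex 36 h (0.08 ± 0.04) and DMSO 36 h (0.07 ± 0.04) overlapped, and dex 2 h was the lowest (-0.24 ± 0.05).

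Cdkn2c encodes p18, an INK4 inhibitor that many cycling and differentiating cells express. Probe mMA033487 read -0.40, -0.49, -0.57 and -0.44 in dex 2 h, against 0.44, 0.03, -0.03 and 0.23 in DMSO 2 h. At 36 h it read 0.08, -0.06, 0.24 and -0.07 in dex, against -0.09, -0.01, -0.07 and -0.01 in DMSO. The dex 2 h arrays were below all 12 others, and the 36 h groups overlapped. The difference was -0.64 ± 0.10 at 2 h (1.56-fold lower, adjusted p = 0.00167) and 0.09 ± 0.10 at 36 h (adjusted p = 0.740).

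The other Cdkn2c probes moved alike, with r = 0.85 to 0.92 among the 3 probes over 16 arrays. Probe mMC018119 read -0.60, -0.43, -0.56 and -0.59 in dex 2 h, against 0.85, -0.02, -0.01 and 0.20 in DMSO 2 h, a difference of -0.80 ± 0.16 (adjusted p = 0.0107). Probe mMA033090 read -0.25, -0.11, -0.44 and -0.45 in dex 2 h, against 0.47, 0.05, 0.04 and 0.14 in DMSO 2 h, a difference of -0.49 ± 0.15 that did not pass (adjusted p = 0.137). On all 3 probes DMSO 2 h replicate 1 was the highest vehicle array, and the dex and DMSO arrays of 2 h did not overlap. Fitted on the 2 h arrays alone, the calls of mMA033487 (adjusted p = 0.0548) and mMC018119 (adjusted p = 0.152) were lost with the same log2 differences.

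At 36 h these other Cdkn2c probes gave larger differences than mMA033487. Probe mMC018119 read 0.25, -0.10, 0.35 and -0.02 in dex 36 h, against -0.28, -0.16, -0.09 and -0.30 in DMSO 36 h, a difference of 0.33 ± 0.16 (adjusted p = 0.258). Probe mMA033090 read 0.44, -0.16, 0.56 and 0.07 in dex 36 h, against -0.20, -0.05, -0.07 and 0.01 in DMSO 36 h, a difference of 0.31 ± 0.15 (adjusted p = 0.242). The groups overlapped on both probes, and with array weights both passed, at 0.39 (adjusted p = 0.00163) and 0.42 (adjusted p = 0.00188).

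The Cdkn2c effect differed between times on 2 of 3 probes, by 0.73 ± 0.14 on mMA033487 (adjusted p = 0.0114) and 1.13 ± 0.23 on mMC018119 (adjusted p = 0.013), with 0.80 ± 0.21 on mMA033090 (adjusted p = 0.0606). Across the array 3.48% of genes differed in this way, 2.12% with the higher value at 36 h, and of the 10 genes here 3 did, Cdkn2b, Cdkn2c and Ccnd1, all with the higher value at 36 h. On mMA033487 the means of DMSO 2 h (0.17 ± 0.21, SD, n = 4), dex 36 h (0.05 ± 0.15) and DMSO 36 h (-0.04 ± 0.04) overlapped as neighbours, and dex 2 h (-0.47 ± 0.07) lay apart below them. Over the 16 arrays Cdkn2b and Cdkn2c (mMA033487) correlated at r = 0.90, a description of points that share arrays and groups.

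Promoter stretches of Cdkn2b and Cdkn2c are shown because these genes fell together at 2 h. Cdkn2b is given for the 120 bases upstream of its start, chr4:89311033-89311152 on the minus strand, with a cyclic AMP response element (CRE, TGACGTCA) in capitals at 46 bases before the start. Cdkn2c is given from 250 to 131 bases upstream of one of its starts, chr4:109666887-109667006 on the minus strand, with AGAACA, the reverse complement of TGTTCT, one arm of the glucocorticoid response element, in capitals at 222 bases before the start.
Cdkn2b: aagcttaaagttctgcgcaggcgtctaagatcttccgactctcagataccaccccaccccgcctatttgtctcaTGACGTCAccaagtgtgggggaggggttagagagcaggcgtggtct
Cdkn2c: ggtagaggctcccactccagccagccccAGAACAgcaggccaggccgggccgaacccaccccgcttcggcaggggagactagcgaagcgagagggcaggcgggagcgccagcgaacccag
The CRE was in 1.79% of all windows and in 1 of the 11 member windows. The TGTTCT arm, searched on both strands, was in 19.0% of all windows and in 1 of 11. A second Cdkn2c start had an E-box (CACGTG, 7.15% of all windows) at 34 bases past the start, the only one in the 11 windows. The 2 genes thus shared none of the searched motifs in these windows.

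**Figure D2:**
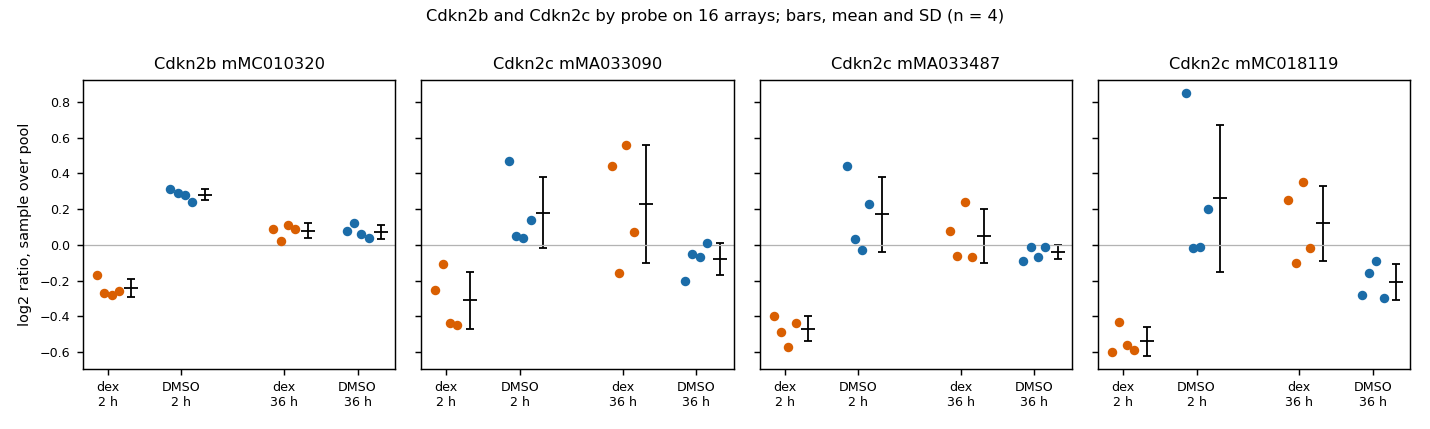
Log2 ratio of sample over pool for the Cdkn2b probe and the 3 Cdkn2c probes, 1 point per array, with mean and SD (n = 4) beside each group. In each panel the dex 2 h arrays lie below the DMSO 2 h arrays, while at 36 h the dex and DMSO arrays overlap.

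Cdkn2a, whose locus encodes both p16Ink4a and p19Arf, rose at 36 h on 1 of 3 probes. Probe mMA033460 read 0.33, 0.06, 0.40 and 0.05 in dex 36 h, against -0.03, -0.24, -0.20 and -0.07 in DMSO 36 h, a difference of 0.35 ± 0.10 (adjusted p = 0.0406). Probe mMC011776 read 0.21, 0.18, 0.24 and 0.24 in dex 36 h, against -0.02, 0.09, 0.03 and 0.04 in DMSO 36 h. Neither pair of groups overlapped, and the difference on mMC011776 of 0.18 ± 0.06 did not pass (adjusted p = 0.0745). The third probe, mMO031317, had 0.06 ± 0.13 (adjusted p = 0.924) with overlapping groups. The sources used here do not name the transcript that each probe reads, and the call of mMA033460 was lost without dex 36 h replicate 1 or 3 or any 1 of the DMSO 36 h arrays, with adjusted p-values of 3.02e-04 to 0.145 over the alternatives by probe. With the 3 probes averaged Cdkn2a did not pass.

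At 2 h the Cdkn2a differences were small and did not pass, at -0.04 ± 0.10 (adjusted p = 0.920), -0.11 ± 0.06 (adjusted p = 0.563) and -0.08 ± 0.13 (adjusted p = 0.879) on mMA033460, mMC011776 and mMO031317. On mMC011776 the arrays read 0.13, 0.06, 0.05 and 0.11 in dex 2 h, against 0.24, 0.20, 0.19 and 0.16 in DMSO 2 h, without overlap and in the opposite direction to 36 h. The test of that change of effect gave 0.29 ± 0.09 and did not pass (adjusted p = 0.102). In the order of means dex 36 h (0.22 ± 0.03, SD, n = 4) overlapped DMSO 2 h (0.20 ± 0.03) and dex 2 h (0.09 ± 0.04) overlapped DMSO 36 h (0.04 ± 0.04), with no overlap between DMSO 2 h and dex 2 h.

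Cdkn2d, which encodes the p19 member of the INK4 group, rose at 36 h on 1 of 2 probes. Probe mMC009333 read 0.36, 0.22, 0.58 and 0.06 in dex 36 h, against -0.20, -0.18, -0.14 and -0.11 in DMSO 36 h. The groups did not overlap, but the dex arrays were spread from 0.06 to 0.58, and the difference was 0.46 ± 0.13 (1.38-fold, adjusted p = 0.0437, 6.36e-05 to 0.16 over the alternatives). This call too was lost without dex 36 h replicate 1 or 3 or any 1 of the DMSO 36 h arrays, and with both probes averaged, at 0.24 (adjusted p = 0.13). Probe mMA034168 had 0.02 ± 0.15 (adjusted p = 0.987), and the probes correlated at r = -0.11. The order of means on mMC009333 was dex 36 h (0.30 ± 0.22, SD, n = 4), DMSO 2 h (0.12 ± 0.29), dex 2 h (0.00 ± 0.13) and DMSO 36 h (-0.16 ± 0.04), and each overlapped the next. At 2 h both probes overlapped between groups, with differences of -0.11 ± 0.13 (adjusted p = 0.822) and -0.20 ± 0.15 (adjusted p = 0.681).

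**Figure D3:**
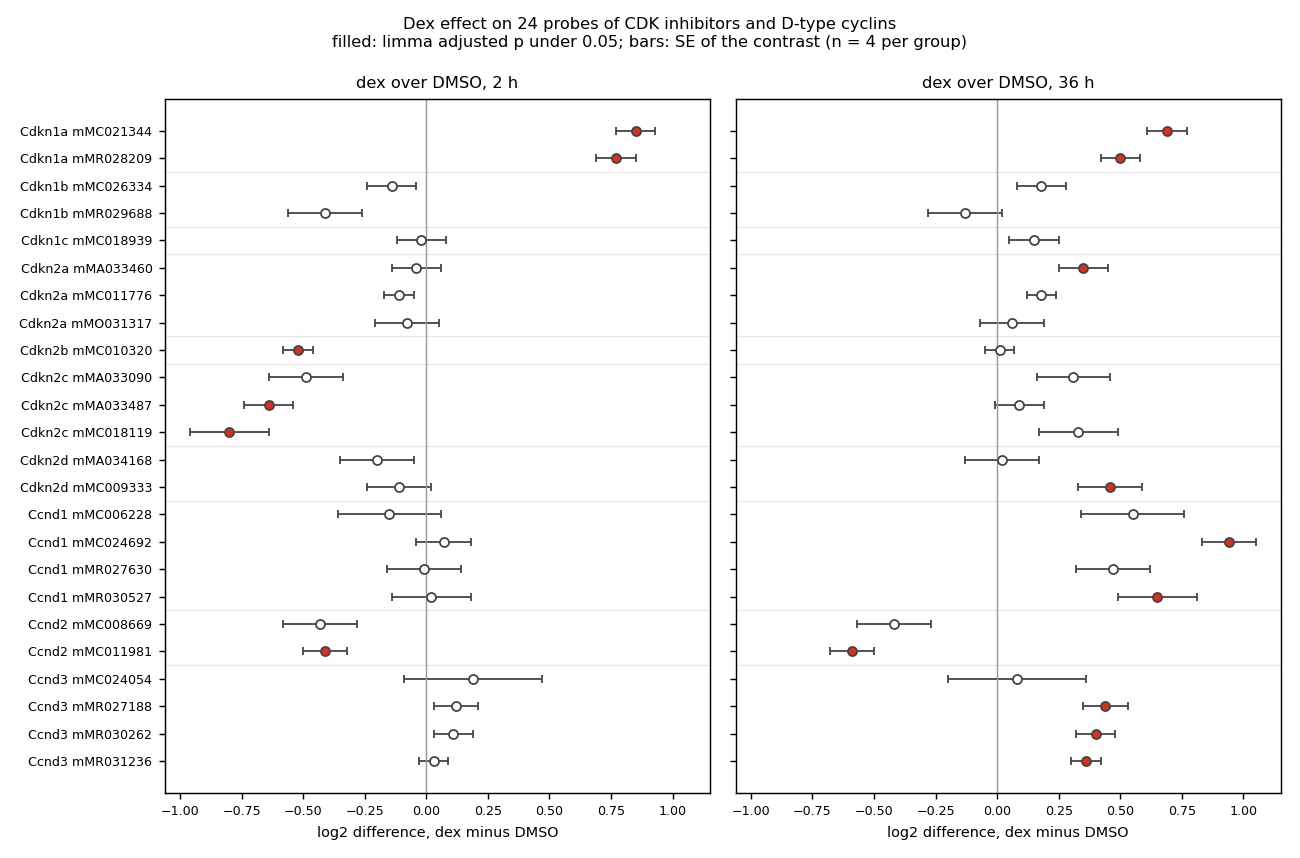
Log2 difference, dex minus DMSO, of each of the 24 probes at 2 h (left) and 36 h (right); bars are the SE of the contrast (n = 4 per group) and filled points have a limma adjusted p under 0.05. At 2 h 6 probes are filled, 2 of them higher, and at 36 h 10 are filled, 9 of them higher.

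Of the D-type cyclins, Ccnd2 fell with dex at both times. Ccnd2 encodes cyclin D2, a D-type cyclin with a more restricted range of tissues than cyclin D1. Probe mMC011981 read -0.12, -0.53, -0.38 and -0.30 in dex 2 h, against -0.06, 0.12, 0.18 and 0.08 in DMSO 2 h. At 36 h it read -0.46, -0.50, -0.47 and -0.23 in dex, against 0.15, 0.17, 0.21 and 0.16 in DMSO. The groups did not overlap at either time, though at 2 h dex replicate 1 (-0.12) was close to DMSO replicate 1 (-0.06).

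The Ccnd2 difference on mMC011981 was -0.41 ± 0.09 at 2 h (1.33-fold lower, adjusted p = 0.0248) and -0.59 ± 0.09 at 36 h (1.50-fold lower, adjusted p = 7.29e-04). Fitted on the 2 h arrays alone the first call was lost (adjusted p = 0.254), as it was without dex 2 h replicate 2, 3 or 4 or DMSO 2 h replicate 2 or 3 (adjusted p = 0.0614 to 0.0873), and with the replicate block (adjusted p = 0.0549). Probe mMC008669 read -0.37, -0.36, -0.39 and -0.38 in dex 2 h, against -0.02, 0.03, 0.08 and 0.13 in DMSO 2 h, with no overlap and a difference of -0.43 ± 0.15 (adjusted p = 0.227).

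At 36 h mMC008669 read -0.44, -0.48, -0.58 and -0.37 in dex, against 0.23, 0.02, 0.23 and -0.65 in DMSO. DMSO 36 h replicate 4 was far below the other vehicle arrays on this probe, though not on mMC011981. With it the difference was -0.42 ± 0.15 (adjusted p = 0.0912), and without it -0.62 (adjusted p = 3.12e-04). The Ccnd2 effect was not shown to differ between times, at -0.17 ± 0.13 (adjusted p = 0.608) on mMC011981 and 0.01 ± 0.21 (adjusted p = 0.991) on mMC008669. In the order of means DMSO 36 h (0.17 ± 0.03, SD, n = 4) and DMSO 2 h (0.08 ± 0.10) came first and dex 2 h (-0.33 ± 0.17) and dex 36 h (-0.41 ± 0.13) last, with overlap within each pair and none between the pairs.

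Ccnd1 encodes cyclin D1, the D-type cyclin that growth factors induce in fibroblasts. At 36 h it was higher in dex than in DMSO on 4 of 4 probes, and 2 of them passed. Probe mMC024692 read 0.12, 0.69, 0.22 and 0.57 in dex 36 h, against -0.56, -0.61, -0.44 and -0.55 in DMSO 36 h, a difference of 0.94 ± 0.11 (1.92-fold, adjusted p = 5.02e-05). Probe mMR030527 read 0.08, 0.81, 0.04 and 0.48 in dex 36 h, against -0.50, -0.33, -0.13 and -0.23 in DMSO 36 h, a difference of 0.65 ± 0.16 (adjusted p = 0.0189). The second call was lost without DMSO 36 h replicate 1 (adjusted p = 0.0714) or replicate 2 (adjusted p = 0.0569).

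The remaining Ccnd1 probes gave 0.47 ± 0.15 (mMR027630, adjusted p = 0.0629) and 0.55 ± 0.21 (mMC006228, adjusted p = 0.14). The 36 h groups did not overlap on any of the 4 probes. Dex 36 h replicate 2 was the highest dex array on every one, at 0.69, 0.81, 0.75 and 0.78 on mMC024692, mMR030527, mMR027630 and mMC006228. Without it the differences on mMR027630 and mMC006228 were 0.27 and 0.36 and mMC024692 still passed, its adjusted p reaching no more than 0.00788 over the alternatives.

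At 2 h Ccnd1 did not pass. Probe mMC024692 read 0.16, 0.25, 0.05 and 0.00 in dex 2 h, against -0.02, 0.06, 0.10 and 0.03 in DMSO 2 h, and the groups overlapped, with a difference of 0.07 ± 0.11 (adjusted p = 0.874). The differences of the other probes were -0.15 to 0.02. In the order of means on mMC024692, dex 36 h (0.40 ± 0.27, SD, n = 4), dex 2 h (0.12 ± 0.11) and DMSO 2 h (0.04 ± 0.05) overlapped as neighbours, and DMSO 36 h (-0.54 ± 0.07) lay apart below them. The dex effect was larger at 36 h than at 2 h on mMC024692, by 0.87 ± 0.16 (adjusted p = 0.00632), and the other 3 probes gave 0.49 to 0.69 without passing. With the 4 probes averaged, the change of effect was 0.67 and did not pass (adjusted p = 0.106).

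**Figure D4:**
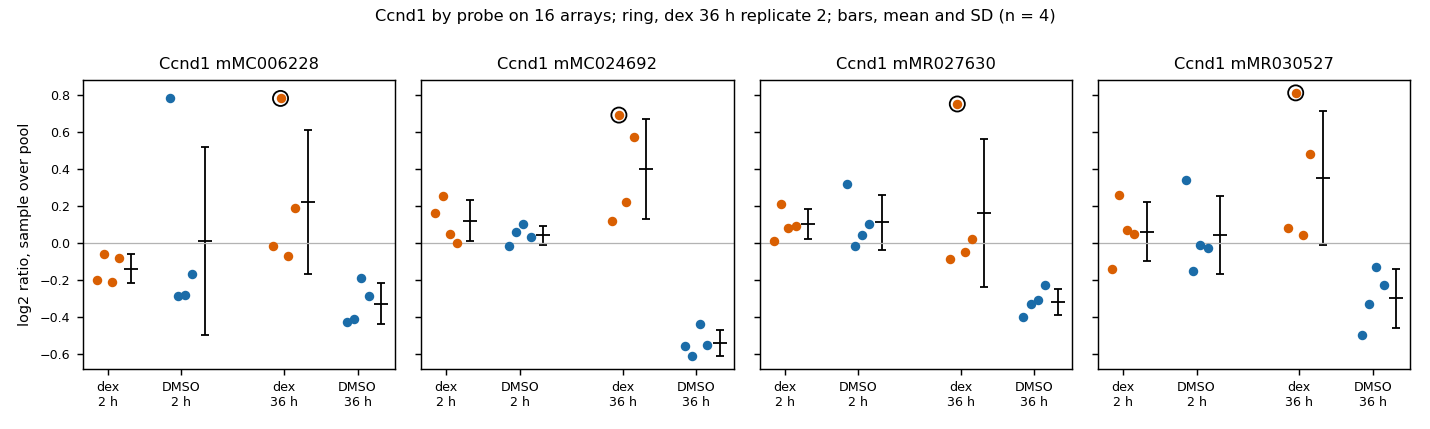
Log2 ratio of sample over pool for the 4 Ccnd1 probes, 1 point per array, with mean and SD (n = 4); a ring marks dex 36 h replicate 2. This replicate is the highest dex 36 h array in each panel, and all DMSO 36 h arrays lie below all dex 36 h arrays.

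Ccnd3, which encodes the widely expressed cyclin D3, a D-type cyclin that rises late in the differentiation of several cell types, was higher in dex at 36 h on 3 of 4 probes. Probe mMR031236 read 0.13, 0.21, 0.14 and 0.15 in dex 36 h, against -0.20, -0.26, -0.15 and -0.19 in DMSO 36 h, a difference of 0.36 ± 0.06 (1.28-fold, adjusted p = 0.00138). Probes mMR030262 and mMR027188 gave 0.40 ± 0.08 (adjusted p = 0.00759) and 0.44 ± 0.09 (adjusted p = 0.00687). Groups did not overlap on these 3 probes, and each passed under all alternatives tried.

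The fourth Ccnd3 probe, mMC024054, gave 0.08 ± 0.28 at 36 h (adjusted p = 0.967). It correlated with the others at -0.12 to 0.08 and ranged from -1.45 to 0.43 in DMSO 2 h. Probe mMR031236 read 0.18, 0.19, 0.12 and 0.09 in dex 2 h, against 0.07, 0.12, 0.14 and 0.11 in DMSO 2 h, so that only DMSO 36 h stood apart among its 4 groups. This did not hold on the other called probes. On mMR027188 dex 36 h (0.19 to 0.59) also lay above DMSO 2 h (0.02 to 0.18). The same was seen on mMR030262, at 0.21 to 0.44 against -0.10 to 0.14. At 2 h all 4 Ccnd3 probes overlapped between groups, with differences of 0.03 to 0.19 and adjusted p-values of 0.692 to 0.893. The change of effect was 0.32 ± 0.09 on mMR031236 and did not pass (adjusted p = 0.0674). Over the 16 arrays mMR031236 and the Ccnd1 probe mMC024692 correlated at r = 0.93, while Ccnd1 and Ccnd2 (mMC011981) correlated at -0.71 and Cdkn1a (mMC021344) and Ccnd2 at -0.82. These values describe arrays that fall into 4 groups and are given without a test.

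In vehicle most of these probes had lower values at 36 h than at 2 h. For DMSO 36 h against DMSO 2 h, 2 of the 10 genes passed, Ccnd1 and Ccnd3, both lower at 36 h, with 1.26% of all genes passing and 0.993% lower, on 2 of the 24 probes and 0.816% of all probes. All 13 member probes whose groups did not overlap were lower at 36 h, where 10.5% of all probes did not overlap, 6.44% lower. At an unadjusted p under 0.05 in limma there were 10 member probes, all lower, and 11.6% of all probes. The median over member probes was -0.218, against -0.0134 for all probes. These comparisons use the same arrays as those above, so the values stand side by side and are not separate evidence.

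Ccnd1 probe mMC024692 averaged -0.54 ± 0.07 in DMSO 36 h and 0.04 ± 0.05 in DMSO 2 h (SD, n = 4 each), a difference of -0.58 ± 0.11 (adjusted p = 0.0191). The remaining Ccnd1 probes gave -0.33 to -0.43 without passing, and with the 4 probes averaged the difference was -0.42 (adjusted p = 0.219). The call of mMC024692 was lost without DMSO 2 h replicate 2 or DMSO 36 h replicate 1, 2 or 4, with adjusted p-values of up to 0.0777. Ccnd3 probe mMR031236 averaged -0.20 ± 0.05 in DMSO 36 h and 0.11 ± 0.03 in DMSO 2 h, a difference of -0.31 ± 0.06 (adjusted p = 0.0244). Its other probes did not pass, at -0.16 ± 0.09 (mMR027188, adjusted p = 0.539), -0.12 ± 0.08 (mMR030262, adjusted p = 0.627) and 0.30 ± 0.28 (mMC024054, adjusted p = 0.737). The Ccnd3 call was lost with the arrays of these 2 groups fitted by themselves (adjusted p = 0.138) and without DMSO 2 h replicate 2 or 3 or any 1 of the DMSO 36 h arrays, and with the 4 probes averaged the difference was -0.07 (adjusted p = 0.818).

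In dex, 3 of the 10 genes passed for 36 h against 2 h, where 2.43% of all genes did, 1.04% higher and 1.41% lower, on 4 of the 24 probes and 1.68% of all probes. Cdkn1a was lower at 36 h, by -0.40 ± 0.08 on mMC021344 (adjusted p = 0.016) and -0.44 ± 0.08 on mMR028209 (adjusted p = 0.0106). Cdkn2b was higher at 36 h by 0.32 ± 0.06 (adjusted p = 0.0146) and Cdkn2c by 0.52 ± 0.10 on mMA033487 (adjusted p = 0.0174). With these arrays fitted by themselves the calls of Cdkn1a (adjusted p = 0.0651 and 0.0525) and Cdkn2b (adjusted p = 0.0627) were lost. Leaving out dex 2 h replicate 3 also ended the calls of Cdkn2b (adjusted p = 0.0588) and Cdkn2c (adjusted p = 0.0672), and leaving out dex 36 h replicate 1 did the same (adjusted p = 0.0592 for Cdkn2b and 0.0653 for Cdkn2c). The Cdkn2c call was lost as well when dex 36 h replicate 3 was left out (adjusted p = 0.0568). Ccnd1 (0.29 ± 0.11, adjusted p = 0.256) and Ccnd3 (0.01 ± 0.06, adjusted p = 0.964) did not pass, and the test of the change of effect for Ccnd3, given above, did not pass either.

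**Figure D5:**
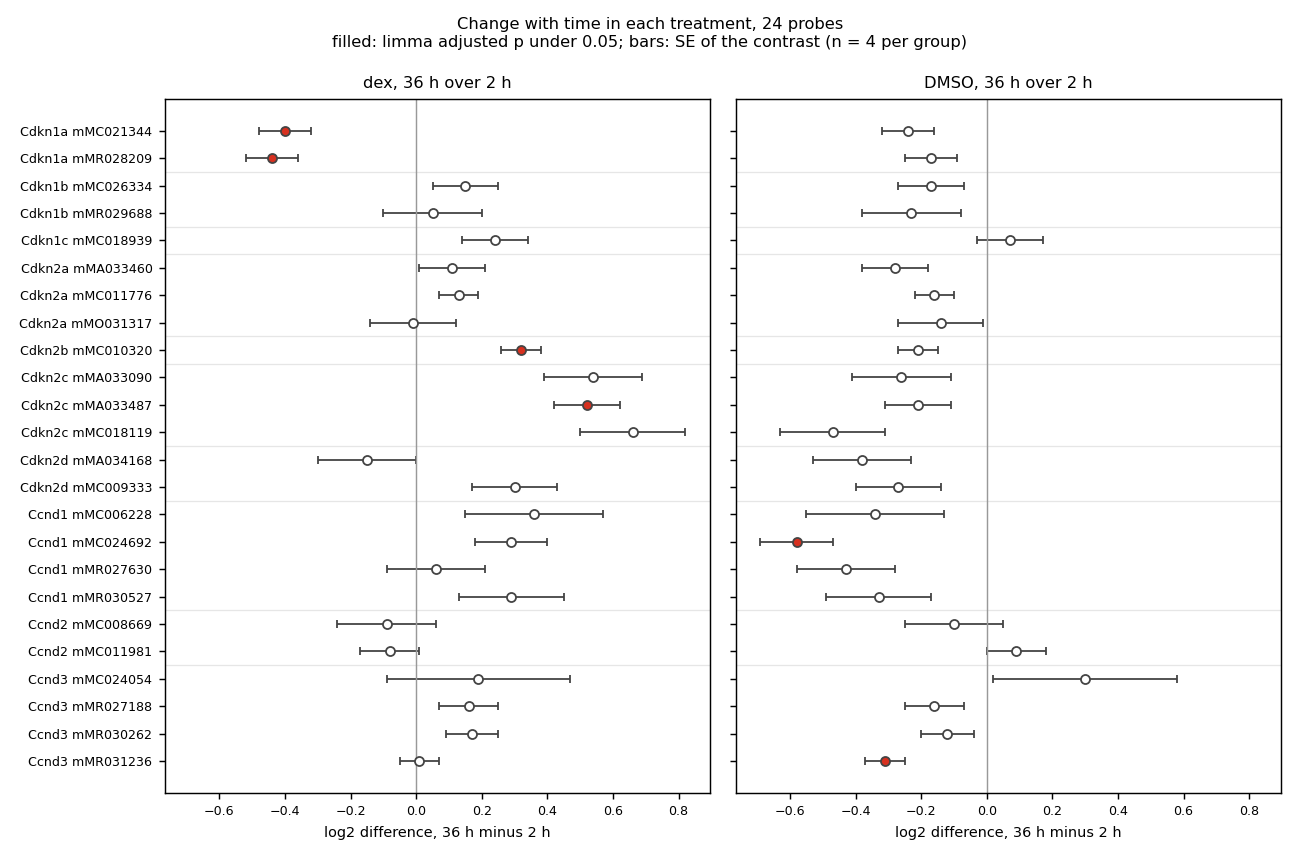
Log2 difference, 36 h minus 2 h, of each of the 24 probes in dex (left) and DMSO (right); bars are the SE of the contrast (n = 4 per group) and filled points have a limma adjusted p under 0.05. In DMSO the 2 filled probes, 1 each of Ccnd1 and Ccnd3, are lower at 36 h, and in dex both Cdkn1a probes are lower and 1 probe each of Cdkn2b and Cdkn2c is higher.

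The kinases and E-type cyclins that act with these genes were followed as a list of 10 genes. At 2 h 1 rose and none fell, and at 36 h 3 rose and none fell. Among all genes 1.97% rose and 1.21% fell at 2 h, and 6.88% rose and 4.96% fell at 36 h. Cdk6, the partner of D-type cyclins, was the one that rose at both times, by 0.50 ± 0.07 at 2 h (adjusted p = 8.47e-04) and 0.60 ± 0.07 at 36 h (adjusted p = 7.72e-05), with a second probe at 0.40 ± 0.11 (adjusted p = 0.0982) and 0.27 ± 0.11 (adjusted p = 0.157). Ccne1, the Cdk2 partner cyclin E1, rose by 0.45 ± 0.09 at 36 h (adjusted p = 0.00334) on 1 probe, while its second probe gave -0.16 ± 0.11. Mnat1, of the CDK-activating kinase, rose on 1 of 4 probes (0.43 ± 0.12, adjusted p = 0.041) and its other probes ran in both directions, from -0.25 to 0.30. With probes averaged neither passed, at 0.15 (adjusted p = 0.355) for Ccne1 and 0.07 (adjusted p = 0.663) for Mnat1.

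The retinoblastoma family and E2F factors, the targets of the D-type cyclin kinases, showed 1 rise of 13 at 2 h and no call at 36 h. In these comparisons 3.18% and 11.7% of all genes passed. The 1 rise was E2f6, a repressive E2F, at 0.63 ± 0.15 (adjusted p = 0.0339), lost on the 2 h arrays alone (adjusted p = 0.353), with its other probes at 0.49 ± 0.21 and 0.31 ± 0.18. At 36 h 2 of the 13 had a probe with an unadjusted p under 0.05 in limma, both higher. As 11.7% of all genes passed there even after adjustment, this count is not read as a result about the list. The 2 nearest to passing were Rbl2 (0.18 ± 0.08, adjusted p = 0.194, with a second probe at -0.14 ± 0.15) and E2f4 (0.19 ± 0.09, adjusted p = 0.256).

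Of 19 measured regulators of these inhibitors and cyclins, 3 rose and 1 fell at 2 h, and 4 rose and 1 fell at 36 h. The shares of all genes passing were 3.18% at 2 h and 11.7% at 36 h. Foxo3, a forkhead factor known to activate Cdkn1b and repress D-type cyclins, rose by 1.44 ± 0.10 at 2 h on probe mMC014829 (adjusted p = 4.94e-07), and 3 of its 4 probes passed there, the others with 1.46 ± 0.14 (adjusted p = 1.14e-05) and 1.37 ± 0.23 (adjusted p = 0.00219), while mMC003480 gave -0.08 ± 0.16. At 36 h Foxo3 rose by 0.49 on mMC014829 (adjusted p = 0.00569). Myc, known to repress Cdkn1a and Cdkn2b and to activate Ccnd2, rose by 1.10 ± 0.15 at 2 h (adjusted p = 2.89e-04) and 1.80 ± 0.15 at 36 h (adjusted p = 8.2e-07) on probe mMC023043. Its second probe, mMC018043, gave 0.94 ± 0.14 at 2 h (adjusted p = 9.13e-04) and 0.68 ± 0.14 at 36 h (adjusted p = 0.00562), so that the probes differed in which time had the larger value. Smad3, the TGF-beta effector that activates Cdkn2b, fell by 0.81 at 2 h (adjusted p = 0.00186) and by 0.53 at 36 h (adjusted p = 0.0189). The Smad3 call at 2 h was lost on the 2 h arrays alone (adjusted p = 0.0627), and that at 36 h without DMSO 36 h replicate 1 (adjusted p = 0.0628) or 2 (adjusted p = 0.0708).

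The forkhead genes Foxo1 (0.68 ± 0.14, adjusted p = 0.00612) and Foxo4 (0.61 ± 0.12, adjusted p = 0.00424) rose at 36 h, Foxo1 on 1 of 2 probes, with the other at 0.28 ± 0.15 (adjusted p = 0.306). Fbxw7, a ubiquitin ligase subunit that targets cyclin E, rose by 0.77 ± 0.13 at 2 h on 1 of 4 probes (adjusted p = 0.00277), with the others from -0.29 to 0.46, and with the probes averaged it was 0.22 (adjusted p = 0.244). On the 2 h arrays alone the Fbxw7 call was lost (adjusted p = 0.0864). No relation between these regulators and the members was tested.

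Of 14 measured p53 targets other than Cdkn1a, 2 rose and 2 fell at 2 h and 2 rose and none fell at 36 h. Across the array 3.18% of genes passed at 2 h and 11.7% at 36 h, so the count at 36 h is near the background. At 2 h the sestrin gene Sesn1 (1.47 ± 0.17, adjusted p = 9.82e-05) and Trp53inp1 (0.89 ± 0.15, adjusted p = 0.0022) rose, while the growth arrest gene Gadd45a (-0.85 ± 0.10, adjusted p = 5.9e-05) and the death receptor gene Fas (-0.41 ± 0.10, adjusted p = 0.037) fell, and on the 2 h arrays alone the calls of Trp53inp1 (adjusted p = 0.0596) and Fas (adjusted p = 0.336) were lost. At 36 h cyclin G1, Ccng1 (0.38 ± 0.10, adjusted p = 0.0363), and Phlda3 (0.37 ± 0.07, adjusted p = 0.00399) rose, the first with adjusted p-values of up to 0.139 over the alternatives, and Sesn1 gave 0.56 ± 0.17 (adjusted p = 0.0592). The median over the 14 genes was -0.04 at 2 h and 0.09 at 36 h, against -0.01 and 0.00 for all genes.

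Proliferation genes, which mark cells in S phase and mitosis, moved at 36 h beside the cyclins. Of 19 measured, none passed at 2 h. At an unadjusted p under 0.05 in limma on at least 1 probe, 3 were higher and 1 lower there. No share of all genes was taken at that threshold, so this count is not read as a result about the list. At 36 h 7 rose and 1 fell, where 6.88% of all genes rose and 4.96% fell. Among the rises were Ccnb2 (0.79 ± 0.20, adjusted p = 0.0199), Top2a (0.72 ± 0.16, adjusted p = 0.0118), Aurka (0.60 ± 0.17, adjusted p = 0.0443) and Bub1 (0.50 ± 0.13, adjusted p = 0.0279), and the fall was Aurkb. The median at 36 h was 0.37, against 0.00 for all genes. The calls of Ccnb2, Aurka and Bub1 were lost under some alternatives, with adjusted p-values of up to 0.0763, 0.136 and 0.106. The Top2a call was lost only with log-odds above 0. Rrm2, another of the rises, was lost under 6 alternatives and gave 0.06 (adjusted p = 0.846) with its probes averaged.

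The genes most like each member were taken as those whose probe correlated best with the member's probe over the 16 arrays. For Cdkn1a these were Klf9 (r = 0.977), Ccn1 (0.976) and Pdxk (0.962). For Cdkn2b they were Tnfaip2 (0.977), Slc40a1 (0.975) and Ddr1 (0.959), and for Cdkn2c Snx30 (0.945), Slc20a1 (0.939) and again Tnfaip2 (0.928). The Tnfaip2 means were -0.53 in dex 2 h, 0.45 in DMSO 2 h, 0.18 in dex 36 h and 0.07 in DMSO 36 h, low in dex 2 h as both INK4 genes were.

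Ccnd1 was most like Gas6 (0.964), Clca3a1 (0.959) and Anxa8 (0.957), and Ccnd3 most like Mogat1 (0.960), Ifi204 (0.956) and Mgst3 (0.955), which were also lowest in DMSO 36 h. Mogat1 averaged 0.80 in dex 36 h and -3.40 in DMSO 36 h, a far wider gap than that of Ccnd3 (0.16 and -0.20). Ccnd2 was most like Rbms1 (0.955), 9430052C07Rik (0.935) and Zfp503 (0.928). Cdkn2a (mMC011776) was most like Cdc42ep2 (0.911), Tob1 (0.906) and Trim47 (0.894), and Cdkn2d (mMC009333) most like Slc39a9 (0.950), Arhgap45 (0.945) and Efcab14 (0.939). These correlations are over arrays that fall into 4 groups and are given as descriptions.

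Cell type markers moved beside the 36 h results, in a comparison where 11.7% of all genes passed. Of 8 measured preadipocyte and fibroblast markers none rose and 4 fell at 36 h (Col1a1, Col1a2, Dlk1 and Pdgfrb). The others did not pass, with Vim at -0.24, Thy1 -0.23, Pdgfra -0.03 and Cd34 0.33, so the fall was not shared by the whole list. The mean log ratio of the 8 per array was -0.13 to 0.00 in dex 36 h, against 0.14 to 0.48 in DMSO 36 h. Of 9 mature adipocyte markers 2 rose (Fabp4 by 2.59 ± 0.31 and Pnpla2 by 0.55 ± 0.11) and none fell, with means of 0.00 to 0.23 in dex 36 h, against -0.36 to -0.26 in DMSO 36 h, while Adipoq gave 0.19 ± 0.08 (adjusted p = 0.211). The remaining adipocyte markers did not pass either, with Lipe at 0.50, Cidec 0.19, Plin1 0.05, Retn -0.03, Lep -0.08 and Slc2a4 -0.16. The adipocyte means thus lean on the large Fabp4 value and do not show a shift shared by the list. Of 6 macrophage markers 1 fell (Lyz2), of 5 endothelial markers none passed (and 0 at an unadjusted p under 0.05 in limma) and of 4 epithelial markers 1 rose (Krt8). The macrophage means were -0.19 to -0.04 in dex 36 h, against 0.02 to 0.12 in DMSO 36 h. Beside Lyz2 (-0.56), Csf1r (-0.36), Ptprc (-0.34) and Adgre1 (-0.07) were lower and Itgam (0.22) and Cd68 (0.17) higher, none passing. The macrophage means thus do not show a shift shared by the list. The endothelial means were -0.05 to 0.06 against 0.00 to 0.03, and the epithelial means 0.14 to 0.20 against -0.17 to -0.10. The epithelial means lean on Krt8 (1.15 ± 0.08), while Krt18 (0.21), Cdh1 (0.04) and Epcam (-0.16) did not pass. At 2 h, where 3.18% of all genes passed, 1 preadipocyte marker fell (Pdgfrb), 1 adipocyte marker rose (Fabp4) and no marker of the other 3 lists passed. Their part in the results on CDK inhibitors and D-type cyclins was not tested, and as ratios to a pool of the same cells these values cannot show whether a marker was present.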

How the data were processed

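RNA of 16 samples of 3T3-L1 cells was measured on 2-colour arrays. Each deposited value is a log ratio of sample (Cy5) over a pool of the samples (Cy3), taken as log2 here, and per the submitters' processing notes limma was used. The sources used here do not name the log base or how background and dye bias were treated, and a natural log would make each change larger by the same factor. No intensities were analysed, so signal over background is unknown, and the number of arrays limits the precision. Of the values 131 were missing, on 3 arrays of dex 2 h, none in a member probe.

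No further normalization or filter was applied. Group means were fitted with lmFit and eBayes of limma 3.58.1 (R 4.3.3) over 16 arrays, without covariates, and p-values were adjusted by Benjamini-Hochberg over all 38467 probes of each comparison. A gene was called where at least 1 probe naming it alone had an adjusted p under 0.05. A difference carries the SE of the contrast. The probe that stands for a gene had the smallest p of the moderated F test over both dex comparisons. By platform annotation 29456 probes had 1 gene symbol, 760 had several and 8251 had no symbol. Of the probes with 1 symbol, 28735 took it by Entrez identifier from a RefSeq table of GRCm38.p6, whether or not it changed. No build is named for the probes. From each pathway list a rule picked up to 4 genes that passed, with the largest changes, and up to 2 that did not, with the smallest p. Not all genes picked are given in the text. Of those that did not pass only Rbl2, E2f4, Sesn1 and Per1 are given, each at 36 h. Foxo3, Rrm2 and Aurkb at 36 h are given outside the rule. Ly6a, Cfd, Trp53, Bax and Ccnb1 of the lists were not measured by a single-gene probe. Motifs were searched with Python 3.11.15. The script was tested on simulated data. The members and lists were chosen with earlier results of these data known. Same-numbered arrays correlated at -0.103 to 0.344 after group means were removed, so the numbers were not taken to pair samples. Alternatives were the groups' own arrays, the replicate block, quantile normalization, median centring, array weights, robust eBayes, only probes with values on all 16 arrays, probe means, log-odds above 0 and leaving out each array.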

Additional observations from a re-analysis of the deposited data

Results flagged for a closer look

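The dex effect differed between 36 h and 2 h, by limma's test of the difference itself, on 4 probes. The change, 36 h minus 2 h, was 0.87 on Ccnd1 probe mMC024692, 0.53 on Cdkn2b probe mMC010320, and 0.73 and 1.13 on Cdkn2c probes mMA033487 and mMC018119. For Cdkn2b and Cdkn2c the dex level was below vehicle at 2 h and overlapped it at 36 h, and for Ccnd1 dex and vehicle overlapped at 2 h and dex was higher at 36 h.

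In 6 of 96 sets of 4 arrays (24 probes in 4 groups) the most extreme array lay farther from the rest than Dixon's limit allows, where chance gives about 5%. Ccnd1 probe mMC006228 read 0.78 in DMSO 2 h replicate 1 and probe mMR027630 read 0.75 in dex 36 h replicate 2, each the highest of its group. Ccnd2 probe mMC011981 read -0.23 in dex 36 h replicate 4, the highest of its group. Ccnd3 probe mMC024054 read -0.60 in dex 2 h replicate 2 and probe mMR027188 read -0.16 in DMSO 36 h replicate 2, each the lowest. Cdkn1b probe mMR029688 read -0.38 in dex 2 h replicate 4, the lowest.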

How the results depend on the processing

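Of 26 results in which a member probe passed, 13 passed under every alternative tried and none reversed, and of 94 that did not pass 19 passed under at least 1. Fitted on the arrays of the groups compared, the members called were 2 for dex at 2 h (294 of all genes), 1 for DMSO 36 h against 2 h (94 genes) and 1 for dex 36 h against 2 h (265 genes), and 4555 genes were called for dex at 36 h. Quantile normalization gave 4349 genes for dex at 36 h, 5 members and 1405 genes for the change of effect, 750 genes for time in DMSO, 39.3% of them higher against 21.4% as reported, and 819 genes for time in dex. Array weights gave 9087 genes for dex at 36 h, 6 members and 1847 genes for the change of effect, 501 genes for time in DMSO, and 5 members and 3973 genes for time in dex. Averaging probes left 4 members and 1800 genes for dex at 36 h, without Cdkn2a and Cdkn2d. It left 2 members and 570 genes for the change of effect, without Ccnd1. For time in DMSO it left 0 members and 220 genes, where 2 members passed by probe and 10 of 24 probes had an unadjusted p under 0.05 in limma. Log-odds above 0, the criterion in the design text, called 1028 genes for dex at 36 h. The cause of these changes was not tested. The replicate block left 1 member (176 genes) for time in DMSO, and 3 members (564 genes) for dex at 2 h and 4 (1986 genes) at 36 h. The replicate numbers were not taken to pair samples.

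Leaving out 1 array at a time gave 3 to 5 members and 475 to 781 genes for dex at 2 h, 4 to 6 and 1289 to 3081 at 36 h, 3 to 4 and 456 to 911 for the change of effect, 0 to 2 and 120 to 531 for time in DMSO, and 1 to 3 and 167 to 636 for time in dex. The highest gene counts came without DMSO 2 h replicate 4 or dex 36 h replicate 2. The noise of the 2 h arrays limits what can be shown there.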
